A study of Mus musculus with 4 samples.

Results

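The 10 genes described here make, sense or break down prostaglandins and leukotrienes, the eicosanoids, in tumors of cells labelled chemerin-expressing or wild type. They were taken by name, as steps of the pathway, with earlier results of these data known but no value in the rule: the cyclooxygenases Ptgs1 and Ptgs2, the synthases Ptges and Ptgis, the prostaglandin E2 receptors Ptger1, Ptger2, Ptger3 and Ptger4, the degrading enzyme Hpgd and the 5-lipoxygenase Alox5. All 10 were among the 47729 genes listed, and all 10 were expressed enough to be tested with the 13694 genes averaging at least 1 RPM (reads per 1000000 counted on genes).

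RNA was sequenced from tumors that Lewis lung carcinoma cells (LLC), a mouse line, formed under the skin of the back of C57BL/6 mice and that were collected on day 5. The LLC-Chem group came from cells transfected with pEFIN plasmids encoding murine chemerin (1-157), a form that needs no further processing to be active, while the cells of the LLC group were wild type. Each group was sequenced as 2 pools of 3 tumors, and p-values measure only the spread between pools. The study took individual clones after selection and also speaks of empty vector controls, so that clone, selection and chemerin cannot be told apart in these 4 pools.

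Prostaglandins start from arachidonic acid, which phospholipases free from membranes and cyclooxygenases turn into the common precursor. Separate synthases then make prostaglandin E2, prostacyclin and the other end products, which act through their own receptors and are inactivated after uptake into cells. 5-Lipoxygenase opens the parallel route to leukotrienes. In tumors, cyclooxygenase 2 and prostaglandin E2 are best known for driving vessel growth and restraining immune cells.

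The libraries held between 28470000 and 33990000 reads, fitted from the spacing of the values, and 3 reads stood for 0.0883 to 0.105 RPM, a limit that covers counting error only. Rarres2, which encodes chemerin, differed little, with 102.2 and 98.2 RPM in LLC tumors against 105.9 and 105.8 RPM in those labelled LLC-Chem (log2 fold change 0.08, limma adjusted p = 0.541), so this gene alone does not settle the labels. Within a group the pools differed by more than sampling noise (chi-square per gene of 65.9 in LLC and 26.9 in LLC-Chem). Among carcinoma markers, Krt8 and Krt18 were expressed (82.75 to 167.1 RPM) whereas Epcam did not exceed 0.2 RPM and the lung markers Sftpc and Nkx2-1 were at or near 0. Of the skin markers, Krt5, Krt14 and Krt1 did not exceed 0.05 RPM, while Krt10 stood at 2.90 and 4.35 RPM in LLC and 2.05 and 2.10 RPM in LLC-Chem tumors.

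Compared with LLC tumors, the pools labelled LLC-Chem had less mRNA for the prostacyclin synthase Ptgis and the prostaglandin E2 receptor Ptger2, and no member was called higher. By limma, 2 of the 10 genes were called lower at an adjusted p under 0.05, over a background of 13.5% of all genes tested, and 0 were called higher, over a background of 9.54%. At an unadjusted p under 0.05, 5 of the 10 passed by limma, over 41.4% of all genes tested. edgeR called 1 of the 10 lower, over a background of 11.7%, and DESeq2 called 4, over 16.6%. Both LLC-Chem pools lay below both LLC pools for 5 genes, an order seen in 39.3% of all genes tested, and above them for 2 genes, an order seen in 33.1%. The median log2 fold change of the 10 was -0.28, beside -0.04 over all genes tested. The counts were thus near the background and are no result about the 10 as a group, so each gene is described by its own values.

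**Figure D1:**
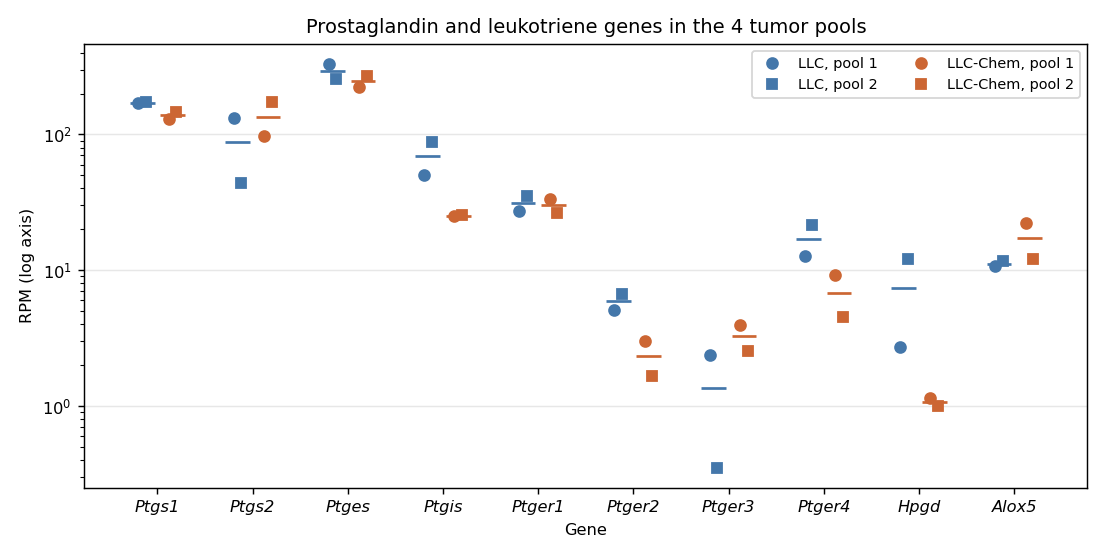
RPM of the 10 genes (log axis) in the 2 LLC pools (blue) and the 2 LLC-Chem pools (orange), with circles for pool 1, squares for pool 2 and a short line at each group mean. Ptgis, Ptger2, Ptger4, Hpgd and Ptgs1 lie lower in both LLC-Chem pools, Ptger3 and Alox5 lie higher in both, and Ptgs2, Ptges and Ptger1 overlap.

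Levels of different genes were compared after dividing RPM by the kilobases of exon. In LLC tumors the order of the means was Ptges (74.7 RPM per kb), Ptgs1 (44.1), Ptgis (26.9), Ptgs2 (19.3), Ptger1 (5.73), Hpgd (4.40), Alox5 (2.72), Ptger4 (2.57), Ptger2 (1.13) and Ptger3 (0.237). The pools of Ptgis and Ptgs2 overlapped, and those of Hpgd, at 1.61 and 7.20 RPM per kb, overlapped with Ptger1, Alox5 and Ptger4. Alox5 also overlapped with Ptger4. In LLC-Chem tumors Ptges (62.7 RPM per kb) and Ptgs1 (35.6) again led, and Ptgs2 (29.4) now stood above Ptgis (9.81) in both pools. They were followed by Ptger1 (5.49), Alox5 (4.18), Ptger4 (1.03), Hpgd (0.640), Ptger3 (0.571) and Ptger2 (0.448). Ptgs2 overlapped with Ptgs1, and Alox5 with Ptger1. Among the last 4 genes each pair of neighbours overlapped. The tumors thus held most message for the terminal prostaglandin E2 synthase and a cyclooxygenase, and least for Ptger2 and Ptger3.

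Ptgs1 (chromosome 2, 36230426 to 36252272, plus strand, GRCm38) encodes the constitutive cyclooxygenase 1. It stood at 169.9 and 172.0 RPM in LLC pools 1 and 2 and at 130.4 and 145.5 RPM in LLC-Chem pools 1 and 2, with means of 170.9 ± 1.48 and 137.9 ± 10.7 RPM (SD, n = 2). Both LLC-Chem pools were lower than both LLC pools, but the difference was small. Its log2 fold change was -0.31 with a standard error of 0.10 (limma adjusted p = 0.0772).

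Ptgs2 (chromosome 1, 150100031 to 150108227, plus strand) encodes cyclooxygenase 2, the inducible enzyme of inflamed tissue and many tumors. It had 132.7 and 44.1 RPM in LLC tumors, against 96.8 and 172.4 RPM in LLC-Chem tumors. The groups overlapped, since LLC pool 1 lay between the LLC-Chem pools while LLC pool 2 was the lowest of the 4. The pools of the same group differed 3.01-fold in LLC and 1.78-fold in LLC-Chem tumors. The log2 fold change of 0.75 had a confidence interval (95%) from -0.60 to 2.10 (limma adjusted p = 0.334), and it became -0.04 without LLC pool 2. Per kilobase of exon, Ptgs2 stood at 0.662 and 0.217 times Ptgs1 in the LLC pools and at 0.629 and 1.00 times in the LLC-Chem pools.

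Genes that induce Ptgs2 or carry such signals did not all move in 1 direction. Of 11 such genes tested, 1 was called higher and 3 lower by limma, beside 9.54% and 13.5% of all genes, and nothing is read from these counts. Il1r1, the signalling receptor of interleukin 1, rose from 158.3 and 131.9 to 346.1 and 388.1 RPM (log2 fold change 1.34, limma adjusted p = 0.01). Its ligand gene Il1b fell from 63.6 and 26.2 to 8.39 and 2.998 RPM (log2 fold change -2.89, limma adjusted p = 0.0265). Il1a, the other ligand, fell by 1.44 on the log2 scale (limma adjusted p = 0.0298). Ligand and receptor messages therefore moved in opposite directions in the pools where Ptgs2 itself was not called. The third gene called lower was Tnf, outside the rule for naming, with 11.1 and 6.15 RPM in LLC tumors against 2.85 and 1.499 RPM in LLC-Chem tumors.

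Ptges (chromosome 2, 30889471 to 30929863, minus strand) encodes the inducible microsomal prostaglandin E synthase, which works downstream of cyclooxygenase 2. It reached 329.5 and 257.3 RPM in the pair of LLC pools and 221.8 and 270.6 RPM in that of LLC-Chem. The groups overlapped, and the log2 fold change was -0.25 with a standard error of 0.17 (limma adjusted p = 0.30). Of the other prostaglandin E synthases, Ptges3 (cytosolic) was at 198.0 and 127.8 RPM in the LLC pools and at 146.9 RPM in both LLC-Chem pools (log2 fold change -0.11, limma adjusted p = 0.70). Ptges2, the second membrane-associated enzyme, was at 25.4 and 24.3 RPM in the LLC pools and fell to 16.9 RPM in both LLC-Chem pools (log2 fold change -0.54, limma adjusted p = 0.0354). Of the prostaglandin E synthases, Ptges2 was thus the one that passed the test. The ratio of Ptges to Ptges3 per kilobase was close to 1 in all pools, between 0.853 and 1.14.

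Ptgis (chromosome 2, 167191805 to 167240604, minus strand) encodes prostacyclin synthase, whose product relaxes vessels and keeps platelets from clumping. It stood at 50.2 and 88.3 RPM in LLC pools 1 and 2 and at 24.9 and 25.5 RPM in LLC-Chem pools 1 and 2. The LLC-Chem pools were nearly equal and both lay well below the LLC pools, which differed 1.76-fold from each other. The means of 69.2 ± 26.9 and 25.2 ± 0.389 RPM (SD, n = 2) gave a 2.75-fold lower level in LLC-Chem tumors, with a log2 fold change of -1.38, a standard error of 0.26 and a confidence interval from -2.04 to -0.73 (limma adjusted p = 0.025). The call held with edgeR (adjusted p = 0.0307), DESeq2 (2.24e-05) and the replicate number as a block in limma (0.0307). Without 1 of the pools the log2 fold change stayed between -1.79 and -0.98, but no gene was called in such fits (limma adjusted p from 0.0771 to 0.21 for Ptgis).

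Among 118 tested genes of the pathway and marker lists, the 3 whose pattern over the 4 pools was nearest to that of Ptgis were Slco2a1, Col1a2 and Col1a1. The distances, on log2 values centred on each gene's mean, were 0.12, 0.20 and 0.26. Slco2a1 carries prostaglandins into cells for breakdown and is given with the wider pathway below, while the other 2 genes encode the chains of type I collagen. Ptgis stood at 0.871 and 0.910 RPM per 100 RPM of Col1a1 in the LLC pools and at 0.856 and 1.07 RPM in the LLC-Chem pools. Relative to this collagen the groups overlapped. Per 100 RPM of Dcn, another fibroblast marker, Ptgis stood at 5.91 and 6.86 RPM in the LLC pools and at 1.20 and 1.61 RPM in the LLC-Chem pools. Over the whole list of 5 fibroblast markers Ptgis was lower in both LLC-Chem pools relative to 3 (Pdgfra, Dcn and Lum) and overlapped relative to the 2 collagens. Relative to the 6 endothelial markers the groups overlapped for 5 and Ptgis was higher for Kdr, and relative to the 5 mural markers they overlapped for 4 and Ptgis was higher for Acta2. As examples Ptgis had 70.6 and 191 RPM per 100 RPM of Pecam1 in LLC tumors and 135 and 273 RPM in LLC-Chem tumors, and with 68.4 and 123 against 154 and 267 RPM per 100 RPM of Acta2. These ratios were among 62 formed after the values had been seen and carry no test.

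The summed endothelial and mural markers, of cells that line and surround vessels, were lower in both LLC-Chem pools, as was Ptgis. Within the LLC group both sums were higher in pool 1 (214.7 and 221.1 RPM) than in pool 2 (146.6 and 185.3 RPM). Ptgis was instead higher in LLC pool 2. All 6 endothelial markers were called lower, from a sum of 146.6 to 214.7 RPM in the LLC pools to a sum of 26.4 to 48.8 RPM in the LLC-Chem pools. Of 5 mural cell markers 4 were called lower, and the sum over all 5 went from 185.3 to 221.1 RPM to one of 41.6 to 62.5 RPM. The fibroblast markers divided. Col1a1 and Col1a2 were called lower, Pdgfra was called higher, and Dcn and Lum were higher in both LLC-Chem pools without passing the test, with sums over the 5 genes of 11799.6 to 20338.8 RPM in LLC and 6869.5 to 8559.2 RPM in LLC-Chem pools. None of these markers was at 0. In whole tumors, fewer cells of a type and less RNA per cell cannot be told apart, and the part of these cells in the level of Ptgis was not tested.

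Ptger2 and Ptger4 encode EP2 and EP4, the receptors through which prostaglandin E2 raises cyclic AMP, and both were lower in both LLC-Chem pools. Their upstream sequences are shown because these receptors share a signal and a direction here but not the make-up of their promoters. The 250 bases before each start were taken from RefSeq on GRCm38.p6, at chr14:44987861-44988110 on the plus strand for Ptger2 and chr15:5244188-5244437 on the minus strand for Ptger4. Capitals mark the motifs searched on both strands: the TATA box TATAAA, the GC box GGGCGG, the core TGACG bound by CREB, the hypoxia core ACGTG and the CCAAT box CCAAT.
Ptger2: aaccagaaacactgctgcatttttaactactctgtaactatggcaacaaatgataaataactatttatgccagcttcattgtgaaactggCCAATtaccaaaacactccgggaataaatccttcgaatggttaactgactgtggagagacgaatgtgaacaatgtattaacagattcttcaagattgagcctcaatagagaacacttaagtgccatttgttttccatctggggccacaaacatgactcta
Ptger4: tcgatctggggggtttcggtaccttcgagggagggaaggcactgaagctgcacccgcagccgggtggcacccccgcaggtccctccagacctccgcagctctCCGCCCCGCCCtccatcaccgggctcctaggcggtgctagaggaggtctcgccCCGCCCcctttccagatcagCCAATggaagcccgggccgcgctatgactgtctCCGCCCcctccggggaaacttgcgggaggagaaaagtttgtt

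The Ptger2 window is poor in G and C (38%) and holds 1 CCAAT box and 0 GC boxes. The Ptger4 window is rich in them (66.8%) and holds 1 CCAAT box and 4 GC boxes, all on the reverse strand as CCGCCC, of which the leading pair overlaps by 1 base. Neither window holds the letters of the other 3 motifs. Over 32851 promoters of the same length, 33.8% hold the CCAAT letters, 32.7% a GC box, 17.8% the TGACG core, 16.6% the hypoxia core and 12.4% the TATA letters. A match describes letters only, and its absence says nothing of the factor. Promoters of 8 of the 10 genes matched in the RefSeq table.

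Ptger2 (chromosome 14, 44988195 to 45003820, plus strand) had 5.10 and 6.65 RPM in LLC tumors, against 2.998 and 1.65 RPM in LLC-Chem tumors. Both LLC-Chem pools were lower than both LLC pools, on 55 to 189 reads per pool. The means were 5.87 ± 1.10 and 2.32 ± 0.954 RPM (SD, n = 2), with a log2 fold change of -1.21, a standard error of 0.30 and a confidence interval from -1.96 to -0.45 (limma adjusted p = 0.0432). The call depended on the tool and design. It held with DESeq2 (adjusted p = 0.0137) but was lost with edgeR (0.056), with limma without a trend (0.0538) and with the replicate number as a block in limma (0.0793). Without 1 of the pools its log2 fold change lay between -1.56 and -0.85 (limma adjusted p from 0.0735 to 0.252).

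Ptger4 (chromosome 15, 5206661 to 5244187, minus strand) reached 12.6 and 21.5 RPM in the pair of LLC pools and 9.14 and 4.50 RPM in that of LLC-Chem. Every LLC-Chem value was below every LLC value, with means of 17.1 ± 6.25 and 6.82 ± 3.29 RPM (SD, n = 2). Its log2 fold change of -1.29 had a standard error of 0.39 and did not pass with limma (adjusted p = 0.0641) or edgeR (0.0811), while DESeq2 called it (0.0123). Exons of other genes on the opposite strand cover 16.5% of its exonic bases, and whether strand was used in counting is not given. Per kilobase, Ptger2 stood between 0.396 and 0.517 times Ptger4 in the 4 pools.

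Leukocytes are a well known site of both receptors, and leukocyte markers were mostly lower in the LLC-Chem pools too. Ptprc, the common leukocyte antigen CD45, stood at 124.5 and 124.3 RPM in LLC pools 1 and 2 and at 55.2 and 29.3 RPM in LLC-Chem pools 1 and 2 (log2 fold change -1.62, limma adjusted p = 0.0218). Of 8 macrophage and monocyte markers 4 were called lower by limma, beside 13.5% of all genes tested. The sum over all 8 was 4151.2 to 6993.7 RPM in LLC and 1777.8 to 3414.8 RPM in LLC-Chem pools. Most of this sum was Lyz2, which was not called (limma adjusted p = 0.106). Mrc1 had a log2 fold change of -0.06 (limma adjusted p = 0.769). Of 8 neutrophil markers 4 were tested and 3 called lower. The sum over all 8 was 111.5 to 183.1 RPM in LLC and 17.6 to 42.9 RPM in LLC-Chem pools. Among them Ly6g, Mpo and Elane did not exceed 0.2 RPM in any pool.

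How the receptors stood relative to these markers depended on the marker. For each 100 RPM of Ptprc, Ptger2 stood at 4.09 and 5.35 RPM in the LLC pools and at 5.43 and 5.63 RPM in the LLC-Chem pools. Relative to 100 RPM of Ptprc, Ptger4 stood at 10.2 and 17.3 RPM in LLC and 16.6 and 15.4 RPM in LLC-Chem tumors. Ptprc itself fell, and 90.2% of all genes tested were higher relative to it in both LLC-Chem pools. Per 100 RPM of Csf1r, the receptor that marks macrophages, Ptger4 stood at 3.84 and 4.04 RPM in the LLC pools and at 4.21 and 4.46 RPM in the LLC-Chem pools. With the same marker Ptger2 overlapped, at 1.55 and 1.25 RPM in LLC and 1.38 and 1.64 RPM in LLC-Chem tumors. Over the whole list of 8 macrophage and monocyte markers, Ptger4 was lower in both LLC-Chem pools relative to 3 (Adgre1, Cd68 and Mrc1), overlapped for 3 and was higher for 2. Ptger2 was lower relative to the same 3, overlapped for 4 and was higher for 1. With Mrc1 as the marker Ptger4 stood at 2.66 and 5.06 RPM in LLC and 1.90 and 1.18 RPM in LLC-Chem tumors, and Ptger2 at 1.07 and 1.57 against 0.622 and 0.431 RPM. With Adgre1 they stood at 6.91 and 8.20 against 5.98 and 5.87 RPM for Ptger4 and at 2.78 and 2.54 against 1.96 and 2.15 RPM for Ptger2. The ratios carry no test, and the part of leukocytes in the level of the receptors was not tested. The genes nearest to Ptger2 over the 4 pools were Ltb4r1, a receptor for leukotriene B4 (distance 0.14), Cd14 (0.15) and Ccr3 (0.21).

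**Figure D2:**
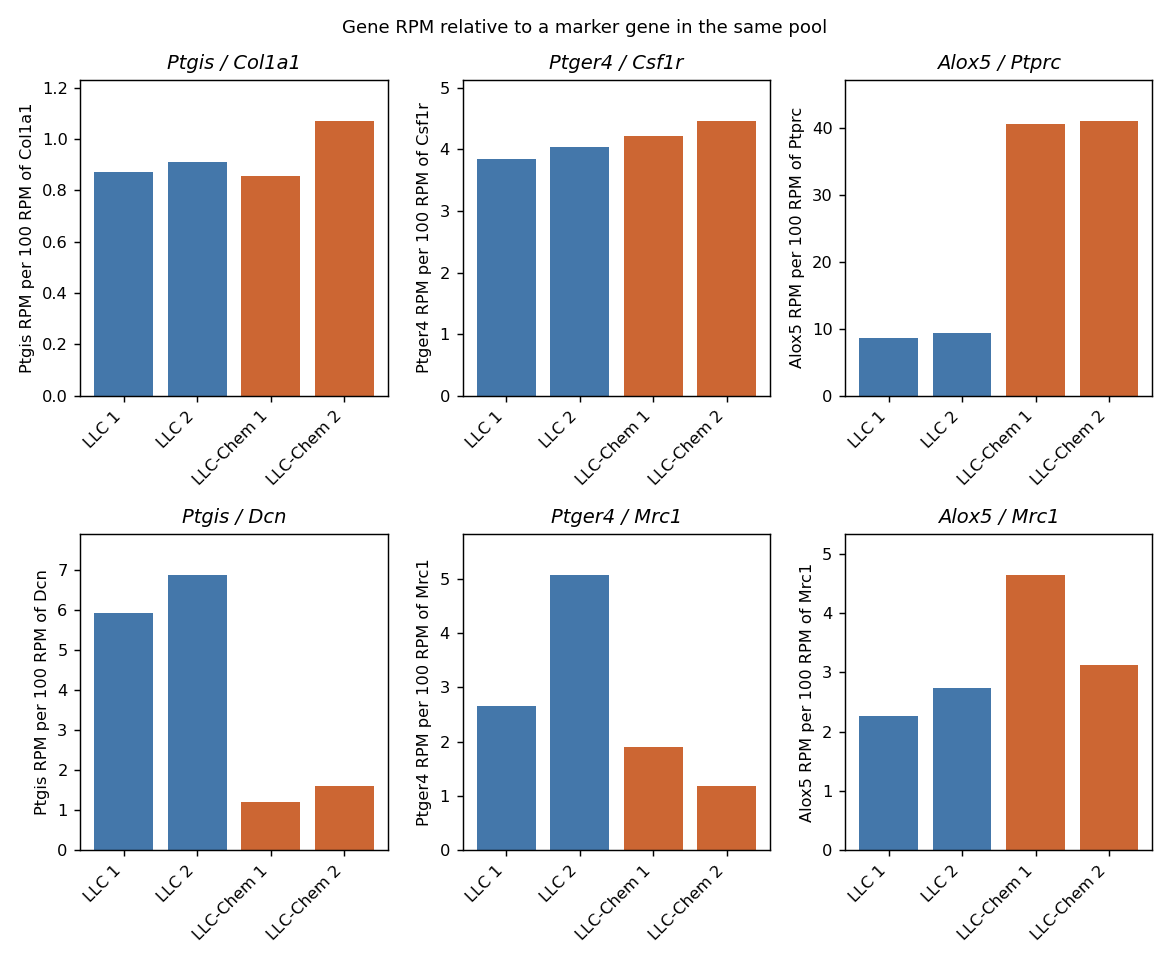
RPM of Ptgis (left), Ptger4 (middle) and Alox5 (right) per 100 RPM of 2 markers each, 1 bar for each pool, with LLC in blue and LLC-Chem in orange. Ptgis overlaps between the groups relative to Col1a1 and is lower in LLC-Chem pools relative to Dcn, Ptger4 is slightly higher relative to Csf1r and lower relative to Mrc1, and Alox5 is higher relative to both Ptprc and Mrc1.

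Of 11 known targets of the cyclic AMP and CREB route tested, 2 were called higher and 2 lower by limma. With 9.54% of all genes called higher and 13.5% lower, these counts are near the background. Per1, a clock gene, rose from 30.5 and 33.3 to 56.2 and 61.8 RPM (log2 fold change 0.88, limma adjusted p = 0.0135). Sik1, a kinase that feeds back on this route, rose from 23.9 and 25.3 to 73.0 and 145.2 RPM (log2 fold change 2.04, limma adjusted p = 0.0165). Both genes also respond to other signals. Dusp1, a phosphatase of the MAP kinases, fell by 0.67 on the log2 scale (limma adjusted p = 0.0267). The other gene called lower was Areg, an EGF receptor ligand outside the rule for naming (log2 fold change -1.49, limma adjusted p = 0.0388). The median over the 11 was -0.04, equal to that of all genes tested.

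The remaining receptors of prostaglandin E2 were not called. Ptger1 (chromosome 8, 83666678 to 83672753, plus strand) encodes EP1, which signals through calcium. It had 27.2 and 35.4 RPM in LLC tumors, against 33.5 and 26.5 RPM in LLC-Chem tumors, so that the groups overlapped (log2 fold change -0.06, confidence interval -0.52 to 0.41, limma adjusted p = 0.833). Its level is uncertain, since whether strand was used in counting is not given.

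Ptger3 (chromosome 3, 157566892 to 157645888, plus strand) encodes EP3, which lowers cyclic AMP and so opposes EP2 and EP4. It stood at 2.35 and 0.350 RPM in LLC pools 1 and 2 and at 3.95 and 2.55 RPM in LLC-Chem pools 1 and 2. Both LLC-Chem pools were higher than both LLC pools, although LLC pool 1 came close to LLC-Chem pool 2. The value of LLC pool 2 rests on 9 reads, and the LLC pools differed 6.71-fold. The log2 fold change of 1.24, with a confidence interval from -0.22 to 2.71 (limma adjusted p = 0.167), became 0.37 without LLC pool 2.

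Hpgd (chromosome 8, 56294585 to 56321043, plus strand) encodes the dehydrogenase that takes the first step in inactivating prostaglandin E2. It had 2.70 and 12.1 RPM in LLC tumors, against 1.149 and 1.00 RPM in LLC-Chem tumors, on 33 to 344 reads. Both LLC-Chem pools were lower than both LLC pools, and LLC pool 2 stood 4.48-fold above LLC pool 1. The log2 fold change of -2.01 was the most negative of the 10 genes, with a confidence interval from -3.57 to -0.45. It did not pass with limma (adjusted p = 0.0686) or edgeR (0.0547), passed with DESeq2 (0.000678) and was -1.02 without LLC pool 2. Per kilobase, Ptges exceeded Hpgd 52.2- and 9.09-fold in the LLC pools and 82.5- and 116-fold in the LLC-Chem pools. The message ratio of the synthase to the degrading enzyme was thus higher in both LLC-Chem pools, and its range in LLC tumors came from LLC pool 2. Neither gene was called by limma, and the ratio carries no test.

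Alox5 (chromosome 6, 116410077 to 116461178, minus strand) encodes 5-lipoxygenase, the enzyme that starts leukotriene synthesis in myeloid cells. It reached 10.7 and 11.6 RPM in the pair of LLC pools and 22.4 and 12.0 RPM in that of LLC-Chem. LLC-Chem pool 1 was clearly higher, while LLC-Chem pool 2 lay only just above the LLC pools. The log2 fold change of 0.54, with a confidence interval from -0.21 to 1.28, was not called (limma adjusted p = 0.224), and it was 0.10 without LLC-Chem pool 1. Alox5 had 8.63 and 9.32 RPM per 100 RPM of Ptprc in LLC tumors and 40.5 and 41.0 RPM in LLC-Chem tumors. Per 100 RPM of Csf1r the values were 3.27 and 2.18 in the LLC pools and 10.3 and 11.9 in the LLC-Chem pools. Per 100 RPM of Mrc1, a marker of tissue macrophages, they were 2.26 and 2.73 in the LLC pools and 4.64 and 3.13 in the LLC-Chem pools. Alox5 was higher in both LLC-Chem pools relative to each of the 8 macrophage and monocyte markers. Of these markers 7 were themselves lower in both LLC-Chem pools. The share of all genes that were higher relative to each marker was not counted, and the ratios carry no test. Relative to Ptprc, 7 of the 10 genes were higher in both LLC-Chem pools, beside 90.2% of all genes tested. Among them Ptger1 stood at 21.8 and 28.5 against 60.6 and 90.4 RPM per 100 RPM of Ptprc, and Ptger3 at 1.89 and 0.281 against 7.15 and 8.70 RPM. The same holds for Alox5ap, the partner protein of the enzyme, with 25.8 and 34.3 against 58.3 and 72.2 RPM per 100 RPM of Ptprc and 9.77 and 8.03 against at least 14.8 RPM per 100 RPM of Csf1r. Alox5ap was higher relative to 7 of those 8 markers. Relative to the other, Mrc1, which was not called, it stood at 6.76 and 10.1 against 6.67 and 5.53 RPM, lower in both LLC-Chem pools.

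Of the genes that work with 5-lipoxygenase, Alox5ap, Lta4h and Ltc4s were not called. Alox5ap, which presents arachidonic acid to the enzyme, stood at 32.1 and 42.7 RPM in LLC pools 1 and 2 and at 32.2 and 21.1 RPM in LLC-Chem pools 1 and 2, with overlapping groups (log2 fold change -0.50, limma adjusted p = 0.175). Lta4h, which makes leukotriene B4, was nearly level at 119.5 and 119.3 against 116.9 and 108.4 RPM (log2 fold change -0.08, limma adjusted p = 0.533). Ltc4s, which makes leukotriene C4, had 4.25 and 9.44 RPM in LLC tumors, against 6.95 and 7.496 RPM in LLC-Chem tumors (log2 fold change 0.17, limma adjusted p = 0.747). The leukotriene B4 receptor Ltb4r1 fell from 6.60 and 9.39 to 3.80 and 2.15 RPM (log2 fold change -1.31, limma adjusted p = 0.038). The 6 other lipoxygenases of the list were all too low to be tested, with no value above 1.10 RPM.

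**Figure D3:**
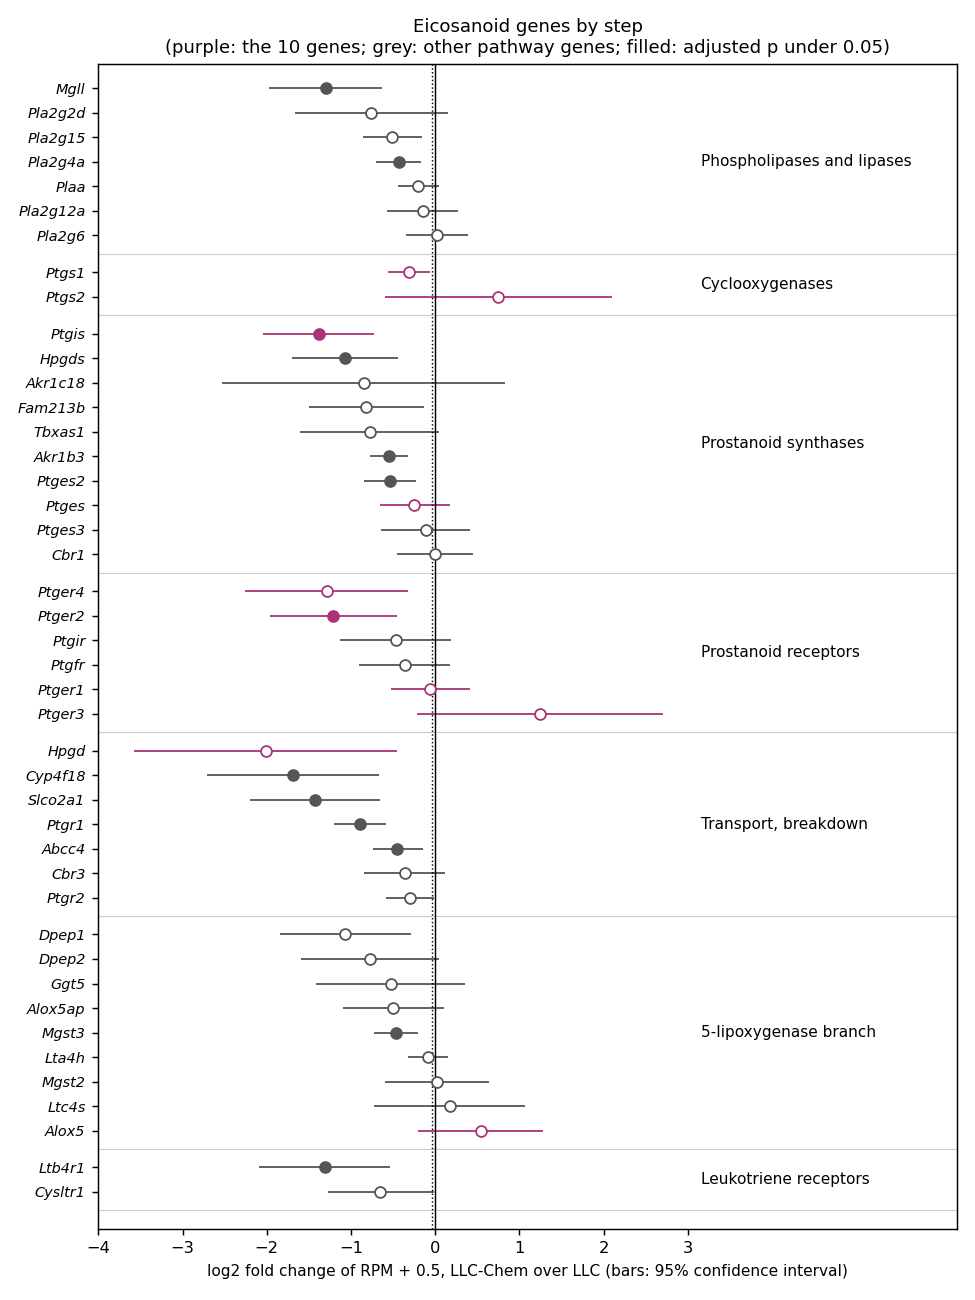
Log2 fold change of RPM + 0.5 (LLC-Chem over LLC) with its confidence interval (95%) for the 10 genes (purple) and the 33 other eicosanoid genes tested (grey), grouped by step. Filled points have a limma adjusted p under 0.05, and the dotted line marks the median of all genes tested, -0.04. Filled points all lie to the left of 0.

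Of 56 other genes of the eicosanoid pathway, 33 were tested. By limma 11 of them (33.3%, beside 13.5% of all genes tested) were called lower and 0 higher, and 24 of the 33 had both LLC-Chem pools under both LLC pools, an order that 39.3% of all genes tested had. Their median log2 fold change was -0.51, over a range from -1.69 to 0.17. With the replicate number as a block 2 were called lower, Slco2a1 and Ptgr1, and this share of 6.06% lay below that of all genes tested in the same fit, 7.77%. edgeR called 10 of the 33 lower, over a background of 11.7%, and limma without a trend called 4, over a background of 9.28%.

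Of the 6 genes of uptake and breakdown, 4 were called lower by limma (13.5% of all genes tested), 3 by edgeR (11.7%) and 2 with the replicate block (7.77%). All 6 were lower in both LLC-Chem pools (39.3% of all genes tested), and no test compared the steps of the pathway. Slco2a1, the prostaglandin transporter, fell from 33.0 and 65.2 to 16.7 and 17.2 RPM (log2 fold change -1.43, limma adjusted p = 0.0324). Relative to 100 RPM of Col1a1 it stood at 0.573 and 0.673 RPM in the LLC pools and at 0.575 and 0.722 RPM in the LLC-Chem pools. Ptgr1, a reductase acting after Hpgd and on leukotriene B4, fell from 64.9 and 66.2 to 38.4 and 32.1 RPM (log2 fold change -0.89, limma adjusted p = 0.0144). Cyp4f18, which inactivates leukotriene B4, fell from 7.05 and 7.65 to 3.20 and 1.10 RPM (log2 fold change -1.69, limma adjusted p = 0.04). Abcc4, an exporter of prostaglandins, had a log2 fold change of -0.45 (limma adjusted p = 0.0478). Genes for transport in, transport out and breakdown were therefore all represented among those that fell.

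Of the arachidonic acid releasing enzymes, 2 of 7 tested genes were called lower by limma (13.5% of all genes tested) and 2 by edgeR (11.7%). With the replicate block limma called 0 of the 7 (7.77% of all genes), with 3 lower at an unadjusted p under 0.05. Mgll, which frees arachidonic acid through monoacylglycerols, fell from 27.2 and 45.2 to 15.8 and 12.3 RPM (log2 fold change -1.30, limma adjusted p = 0.0291). Pla2g4a, the cytosolic phospholipase that serves both branches, fell from 67.4 and 60.6 to 47.0 and 47.4 RPM (log2 fold change -0.43, limma adjusted p = 0.0415). Messages for a lipase and a phospholipase that release substrate were thus called lower by limma. Ptgs2 and Ptges were not called, a difference that was not itself tested.

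Of the other prostanoid synthases, 3 of 8 were called lower by limma (13.5% of all genes tested), among them Ptges2 described above, and 3 by edgeR (11.7%). With the replicate block limma called 0 of the 8 (7.77% of all genes), with 4 lower at an unadjusted p under 0.05. Akr1b3, which can make prostaglandin F2 alpha, fell from 149.3 and 146.7 to 103.7 and 98.6 RPM (log2 fold change -0.55, limma adjusted p = 0.02). Hpgds, the prostaglandin D2 synthase of mast cells and other leukocytes, fell from 17.7 and 18.4 to 10.7 and 6.45 RPM (log2 fold change -1.07, limma adjusted p = 0.0376). The 4 mast cell markers tested, of 6, were all called lower beside it, from a sum over the 6 of 31.4 to 72.6 RPM to one of 10.6 to 15.2 RPM, and their part in the level of Hpgds was not tested. Ptgds, the other prostaglandin D2 synthase, did not exceed 0.0999 RPM.

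Thromboxane and prostacyclin are opposed in their action on platelets. Tbxas1, the thromboxane synthase of platelets and macrophages, reached 28.6 and 52.5 RPM in the pair of LLC pools and 27.4 and 18.2 RPM in that of LLC-Chem (log2 fold change -0.78, limma adjusted p = 0.134). The groups did not overlap, yet it was not called. Ptgir, the prostacyclin receptor, stood at 12.0 and 11.1 RPM in LLC pools 1 and 2 and at 10.6 and 6.30 RPM in LLC-Chem pools 1 and 2 (log2 fold change -0.47, limma adjusted p = 0.23). Prostacyclin synthase was therefore called lower and its receptor was not, a difference that was not itself tested. Mgst3, a microsomal transferase that can conjugate leukotriene A4, fell from 53.6 and 51.7 to 39.3 and 36.6 RPM (log2 fold change -0.47, limma adjusted p = 0.0344).

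**Figure D4:**
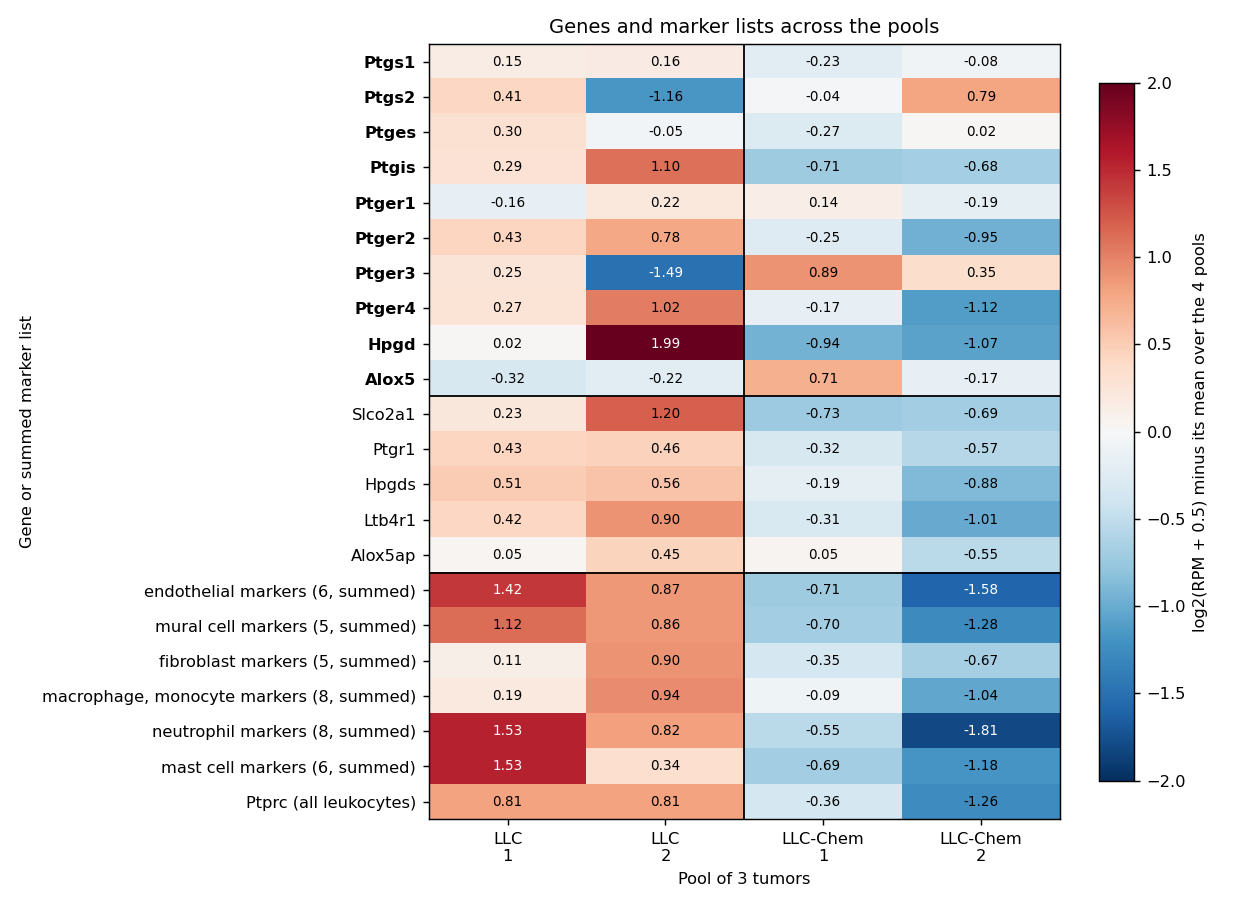
Log2(RPM + 0.5) minus its mean over the 4 pools, for the 10 genes (bold), 5 other pathway genes and 7 summed marker lists, with red above and blue below the mean. LLC pool 2 stands out for Hpgd (1.99), Ptgis (1.10) and Ptger4 (1.02) above the mean and for Ptgs2 (-1.16) and Ptger3 (-1.49) below it.

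The pools of a group differed in ways that ran through several of the 10 genes. LLC pool 2 had the highest value of the 4 pools for Ptgis, Ptger2, Ptger4 and Hpgd and the lowest for Ptgs2 and Ptger3. The same pool had the highest sums of fibroblast and of macrophage and monocyte markers. LLC pool 1 instead had the highest sums of endothelial, neutrophil and mast cell markers. LLC-Chem pool 2 had the lowest Ptger2 and Ptger4 and also the lowest leukocyte, endothelial and fibroblast sums. The values of single pools therefore bear on how far apart the groups lie, most of all for Ptgs2, Ptger3 and Hpgd.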

How the data were processed

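RNA from 4 pools of LLC tumors was sequenced with paired ends after TruSeq RNA preparation. After mapping to GRCm38.p4 (STAR) and counting on the genes of Ensembl 84 (HTSeq), the authors deposited RPM, which sum to 1000000 per pool. Versions and the strand setting of the counting are not given in the sources used here. All columns of the table matched a sample.

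RPM are not counts, so groups were compared with limma 3.58.1 in R 4.3.3 (two-sided test on log2(RPM + 0.5) by lmFit and eBayes with trend). The p-values were adjusted after Benjamini and Hochberg over all 13694 genes averaging 1 RPM or more. Fold changes are on that scale and understate those of low genes. An exact permutation test of 2 against 2 pools cannot go below p = 0.333. All nonzero values (100% within 0.1 step) were whole multiples of 1 step of 0.04997 RPM. The steps of each pool sum to about 20000000, so a scaling to that total was inferred, library totals of 28470000 to 33990000 reads were fitted, and edgeR 4.0.16 and DESeq2 1.42.0 were run on the reads recovered. The fits were tested on simulated data.

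The genes and lists were chosen with earlier results of these data known. All 10 genes were named. Of the other pathway genes, up to 10 called in a direction by adjusted p and a set completing a step with the 10 were named, and up to 3 called inducers and CREB targets each. Abcc4, Tnf and Areg were named beyond this rule, and the markers used in ratios were chosen after their values were seen. GENCODE M21 (GRCm38) gave coordinates and exon lengths for 98.9% of the identifiers, and RefSeq (GRCm38.p6) the promoters. Same-numbered pools were checked for shared deviations, and the methods describe no pairing. The alternatives were pseudocounts of 0.1 and 1, other filters, TMM and median-of-ratios scaling, no trend, the replicate block, edgeR, DESeq2 and omitting each pool in turn. The crossed pairing and edgeR with the block were chosen after seeing the data. Figures were made with matplotlib 3.10.9 in Python 3.11.15. A further value is not reported here.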

Additional observations from a re-analysis of the deposited data

How the results depend on the processing

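The 2 members called were the same under both other pseudocounts, both other scalings and the filter at 0.5 RPM, and these settings kept all counts within 1.5 times of 1306 genes higher, 1848 lower and 11 genes of the wider list lower. Over all 26260 genes detected in at least 1 pool, limma called 1 gene higher and 0 lower, with 0 members and 0 genes of the wider list, against 3394 higher, 4003 lower, 3 members and 19 genes of the wider list at an unadjusted p under 0.05. Without a trend, limma called 1 member and 4 genes of the wider list, beside 891 genes higher and 1271 lower of all tested. edgeR called 1 member and DESeq2 called 4.

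Same-numbered pools deviated with a correlation of -0.1405 over 13694 genes. With only 2 pools per group, this correlation cannot decide whether the numbers pair the pools. With the replicate block limma called 549 genes higher, 1064 lower, 1 member and 2 genes of the wider list, and edgeR with the block called 508, 733, 1 and 1. With the pairing crossed the counts were 1579 higher, 2320 lower, 5 members and 18 genes of the wider list.

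Leaving out any pool leaves 1 pool in a group, which is assumed to vary like the other group. The counts were then 0 to 0 in both directions, for members and for the wider list. At an unadjusted p under 0.05, limma still had 998 to 2359 genes higher, 1580 to 2823 lower, 2 to 6 members and 8 to 17 genes of the wider list. Of the 10 genes, Ptgs2 and Ptger1 changed sign in these fits. Ptgs2 was at -0.04 without LLC replicate 2, and Ptger1, from -0.24 to 0.13 over these fits, was at 0.13 without LLC replicate 2 and 0.11 without LLC-Chem replicate 2. The cause of these changes was not tested. TMM scaling moved the median log2 fold change of all genes from -0.043 to 0.002. With 2 pools per group, the spread between pools limits the precision. Depth also limits values on few reads, such as Ptger3 in LLC pool 2 (9 reads) and Hpgd in LLC-Chem pools 1 and 2 (39 and 33). Ptger2 in LLC-Chem pool 2 rests on 55 reads. The 2 limits were not compared gene by gene.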
